A study of Mus musculus with 27 samples.

Results

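The early and the late uterine response to estradiol were compared directly within the B6 strain, with 3 arrays of uterus taken 24 h after injection set against 3 arrays of uterus taken 2 h after injection. These 6 arrays were chosen by sample titles naming B6, E2 and either time, out of 27 arrays in the study. The study profiled uterine RNA of C57BL/6 (B6), C3H and first-generation hybrid (F1) mice to ask, from its title, how genotype bears on the transcriptional response to estrogen. Both groups compared here were C57BL/6 females aged 8 weeks whose ovaries had been removed 1 to 2 weeks before treatment. They had received one intraperitoneal dose of 40.0 µg per kg of 17β-estradiol (E2), the chief estrogen of the ovary, carried in 0.1 ml saline with 0.25% ethanol. A further 3 B6 arrays came from females of the same age and surgery that received saline and ethanol alone, and their levels are given for orientation only. The labels give no collection time for these vehicle samples. Every animal therefore lacked ovarian hormones before the injection, and the 2 h and 24 h uteri came from different animals. The tissue was the whole uterus of 3 animals per group, and the labels do not say which animal an array came from. Each p-value reflects the spread between arrays within groups, pooled over all 27 arrays, and part of that spread may be technical.

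Estradiol acts in the uterus through estrogen receptor alpha, a ligand-activated transcription factor present in epithelium, stroma and muscle. In the rodent uterus the response is classically described in an early phase of transcription factor induction, fluid uptake and vascular permeability, followed by a late phase of epithelial DNA synthesis, cell division and secretion. Part of the epithelial response is known to be relayed by growth factors made in the stroma.

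Cy3-labelled RNA was read on Agilent whole mouse genome arrays, and levels are log2 processed signal minus the 75th percentile of each array, so that a level of 0 is that percentile. Levels of different genes are not comparable, because each comes from its own probe. The 75th percentile of the 6 arrays lay between 1223 and 1476 intensity units, and 73.4% to 77.9% of probes were well above background. Replicates correlated across genes at r = 0.9925 to 0.9952 at 24 h and 0.9937 to 0.9947 at 2 h, and arrays of different times at 0.947 to 0.9503. Genes are not independent replicates, and these values are a description. Between 112 and 198 genes per array lay over 1 log2 unit from the group mean in the 6 arrays, against 79 to 479 in the other 21 arrays. The highest counts were 479 in C3H 24 h replicate 1, 435 in B6 vehicle replicate 1 and 297 in C3H 2 h replicate 1. Differences are the 24 h mean minus the 2 h mean with the standard error (SE) of a limma fit over all 27 arrays (n = 3 arrays per group), and genes counted as called when p, adjusted by Benjamini and Hochberg's method over 21866 genes, was under 0.05.

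The tissue label was checked with marker genes. All 17 uterine epithelium, 12 stroma and 14 smooth muscle markers measured were well above background on all 6 arrays. The mean log2 level of the epithelium markers was 2.37 to 2.44 at 24 h and 1.16 to 1.42 at 2 h, and that of the stroma markers 3.96 to 4.12 and 2.93 to 3.32. For smooth muscle markers the means were 3.25 to 3.35 at 24 h and 3.4 to 3.54 at 2 h. In bulk tissue, fewer cells of a type and less RNA per cell cannot be told apart, which holds for every value given here.

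Between 2 h and 24 h most immediate early transcription factor genes fell in the B6 uterus, and most genes of cell division, sterol synthesis, the respiratory chain and epithelial products rose. The transcription factor gene Egr4 was at least 167-fold lower at 24 h and Fos 27.1-fold lower, whereas Sprr2f, a small proline-rich protein of the cornified envelope, was 204-fold higher. Mitosis, DNA replication, proteasome, respiratory chain and cholesterol synthesis genes were higher in nearly every measured member. Of 21866 genes, 15019 were called (68.7%), 7854 higher (35.9%) and 7165 lower (32.8%) at 24 h. A call with at least a 2-fold difference was made for 5767 genes (26.4%), of which 2753 were higher (12.6%) and 3014 lower (13.8%). The 3 arrays of each time did not overlap for 15714 genes (71.9%). The median difference of all genes was 0.04 log2 with quartiles of −0.56 and 0.57. Median centring in place of the 75th percentile moved it by 0.14, to 0.18, and gave 9121 higher and 5958 lower genes. Because so many genes were called, counts within a gene list are read against these percentages, and no list was tested as a set.

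**Figure D1:**
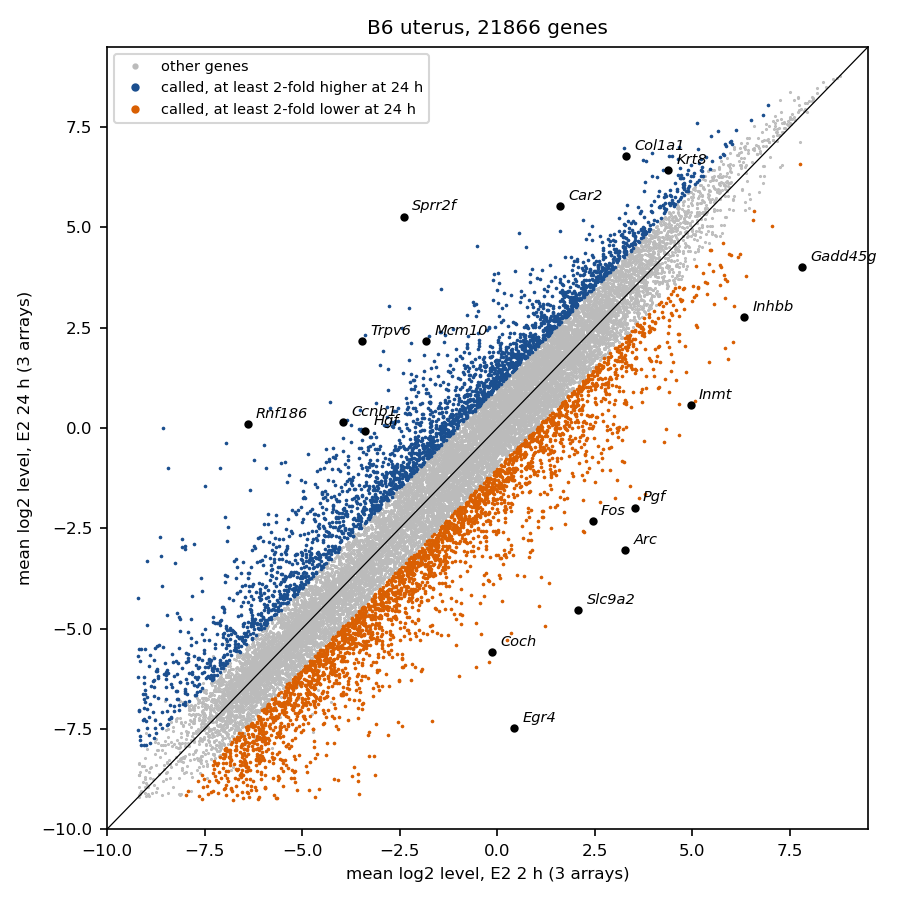
Mean log2 level of each of 21866 genes at 24 h (vertical axis) against 2 h (horizontal axis) after E2 in B6 uterus, 3 arrays per time, with genes called and at least 2-fold different in blue (higher at 24 h, 2753 genes) and orange (lower, 3014 genes). Named points such as Sprr2f and Rnf186 lie far above the diagonal, and Egr4, Coch and Slc9a2 far below it.

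The largest rises between both times were in genes of barrier epithelium and secretion. Sprr2f stood at −2.67, −2.31 and −2.22 at 2 h and at 5.51, 5.37 and 4.93 at 24 h, a difference of 7.67 (SE 0.33, adjusted p = 3.36e-14). The vehicle arrays stood at −3.08, −2.91 and −3.39, so the 24 h arrays alone were high and overlapped no other array. Sprr genes form a family of close sequence, and probes may not separate all members. Rnf186, a gene for a membrane ubiquitin ligase, was at −6.29, −6.67 and −6.23 at 2 h and at 0.43, 0.06 and −0.23 at 24 h, a difference of 6.49 (SE 0.23). The serpin gene Serpinb5 differed by 6.32 (SE 0.5), with 2 h arrays between −6.37 and −5.16 and 24 h arrays between 0.05 and 0.76. Trpv6, an epithelial calcium channel gene, was at −3.21, −3.71 and −3.47 at 2 h and at 2.45, 2.06 and 2 at 24 h, a difference of 5.63 (SE 0.19). Its vehicle level, −1.34 to −1.22, lay between both. Sprr1a (5.72), the secreted-protein gene Fam3b (5.57), the serine protease gene Tmprss4 (4.94), the protease inhibitor gene Spink12 (4.94) and the diamine oxidase gene Aoc1 (4.92) were also among the largest rises above background on every array, together with Krt14 and Krt5, which are described with the squamous markers.

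Some genes were not well above background on 1 or more of the 3 arrays of one time, and their difference is given as a bound, the mean of the brighter group over the higher of the probe's own signal and the lowest signal well above background on each array of the dimmer group. Sprr2d was at least 120-fold higher at 24 h, Ifne, an epithelial interferon of the reproductive tract, at least 83.3-fold, the interleukin 1 family gene Il1f6 at least 59.6-fold and the keratin gene Krt6a at least 59.5-fold. On the falling side Egr4 was at least 167-fold lower, the chloride channel gene Ano2 at least 38.6-fold, the potassium channel subunit gene Kcnip2 at least 22.4-fold and Apol8 at least 21.1-fold. Ifne was well above background on 1 of the 3 arrays at 2 h and Apol8 on 1 of the 3 at 24 h, and the other 6 genes on 0 of 3 at their lower time. Egr4 stood at 0.61, 0.66 and 0.04 at 2 h and between −7.62 and −7.4 at 24 h, where none of the 3 arrays was well above background.

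The largest falls among genes above background on every array held transporters, immediate early genes and secreted factors. Slc9a2, a sodium and proton exchanger gene, was at 1.94, 2.02 and 2.25 at 2 h and at −4.49, −4.54 and −4.62 at 24 h, a difference of −6.62 (SE 0.15, adjusted p = 7.67e-18), or 98.4-fold. Its vehicle arrays lay between −3.04 and −2.68, above the 24 h arrays. Arc, an immediate early gene best known from neurons, differed by −6.33 (SE 0.17), from 3.05 to 3.4 at 2 h to between −3.1 and −2.99 at 24 h. Myh7, a slow muscle myosin heavy chain gene, was at 1.17, 1.28 and 1.23 at 2 h and at −5.06, −5.01 and −4.73 at 24 h, a difference of −6.16 (SE 0.2). The 24 h arrays of Myh7 lay next to the vehicle arrays (−5.16 to −4.94) and far below all 2 h arrays. Coch, an extracellular matrix gene, showed another order: vehicle (−0.2 to 0.1) and 2 h arrays (−0.49 to 0.3) overlapped, and 24 h arrays were low (−5.76 to −5.4), a difference of −5.47 (SE 0.2). The potassium channel subunit gene Kcne2 (−5.6), Nkpd1 (−5.53), Csrnp3 (−5.53), the placental growth factor gene Pgf (−5.51), Egr3 (−5.45), Pitpnm3 (−5.41), the stress cytokine gene Gdf15 (−5.38) and the kinase gene Brsk2 (−5.2) also fell.

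Immediate early transcription factors were lower at 24 h in 21 of 23 measured members and higher in 1, with a median difference of −2.37 against 0.04 for all genes. These genes are switched on within minutes to hours of a stimulus without new protein synthesis. Fos, a subunit of the AP-1 factor, was at 2.53, 2.39 and 2.42 at 2 h and at −2.28, −2.23 and −2.43 at 24 h, a difference of −4.76 (SE 0.2, adjusted p = 1.81e-14). The vehicle arrays of Fos lay between −3 and −2.41, so the 24 h arrays were back near them and far below the 2 h arrays. Its partners Jun (−2.29) and Junb (−2.22) and the related factor gene Atf3 (−4.83) fell as well. Myc, a driver of cell growth, was the member not called, at 1.85, 2.23 and 1.94 at 2 h and 2.01, 1.82 and 2.35 at 24 h. The Myc arrays of both times overlapped, the difference was 0.06 (SE 0.11, adjusted p = 0.67), and both times lay above vehicle (1.37 to 1.49). Klf2 was called higher (0.44), but 1 of its 2 probes had the opposite sign, and with quantile normalization it was −0.04.

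**Figure D2:**
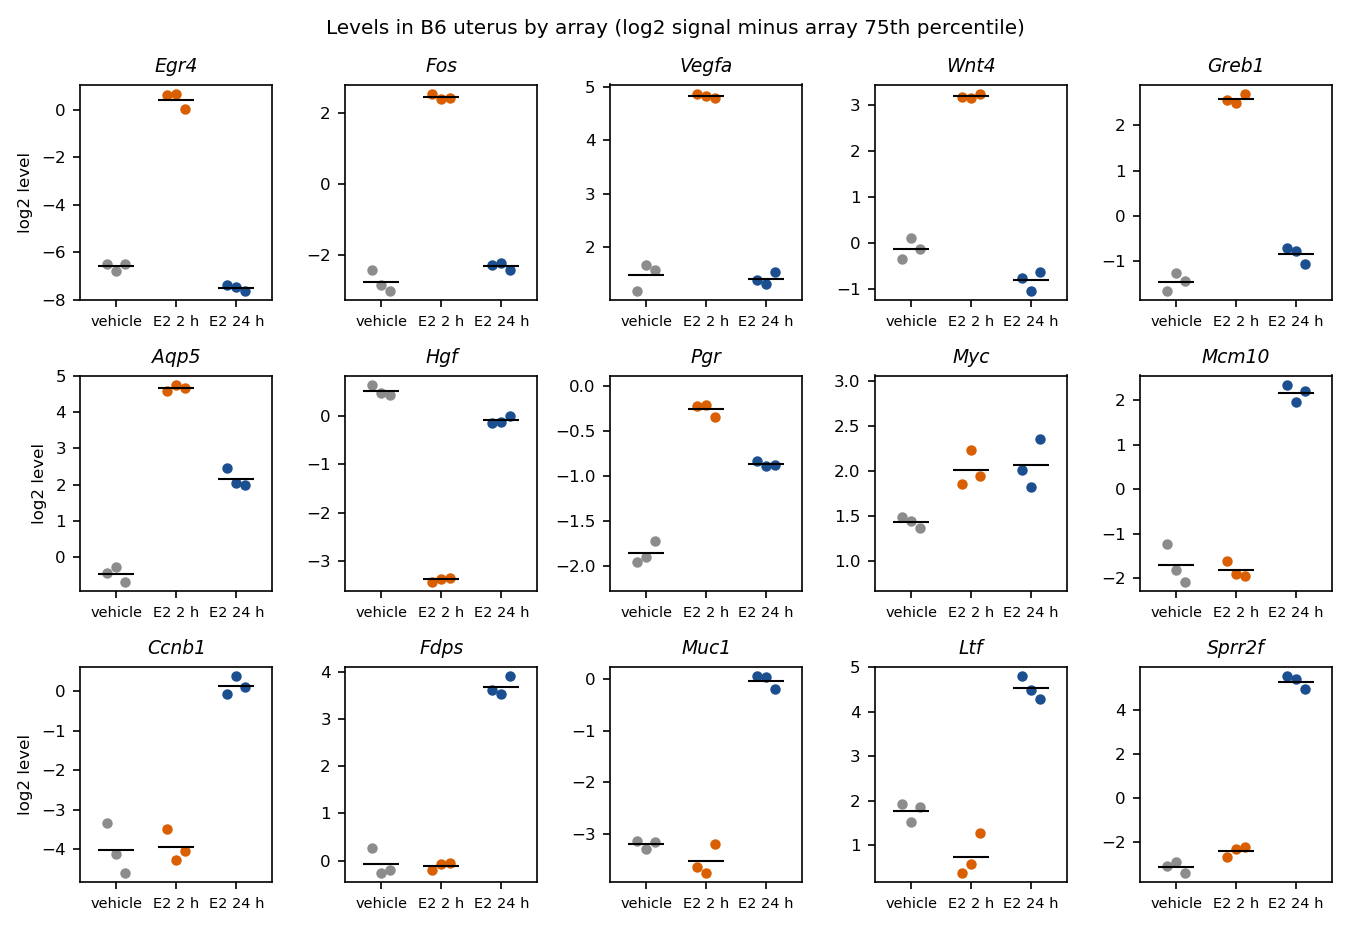
Log2 level of 15 genes on each B6 array (points) with group means (lines) for vehicle, E2 2 h and E2 24 h, each panel on its own vertical scale. Egr4, Fos, Vegfa, Wnt4 and Greb1 were high at 2 h only, Mcm10, Ccnb1, Fdps, Muc1 and Sprr2f were high at 24 h only, and Myc overlapped between both times.

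Negative feedback genes of kinase and cytokine signalling followed, with 19 of 23 lower, 2 higher and a median of −1.18. Socs3, an inhibitor of cytokine signalling, was at 5.98, 6.09 and 6.08 at 2 h and at 2.05, 2.13 and 2.26 at 24 h, a difference of −3.9 (SE 0.25). Errfi1, an inhibitor of the EGF receptor, differed by −3.76 (SE 0.09), Socs1 by −3.5 and the phosphatase gene Dusp8 by −3.45. For each of these 4 genes the 2 h arrays all lay above the 24 h arrays. Rgs2, which dampens G protein signalling, rose by 2.43 (SE 0.2), from 2.08 to 2.42 at 2 h to 4.61 to 4.84 at 24 h, and stayed below vehicle (5.77 to 6.18). Dusp14 rose by 0.66.

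Early estrogen-response genes had 23 of 29 members lower at 24 h, 2 higher and a median of −2.15. The list was drawn up with the 2 h response of these samples known, so its direction is not independent evidence. Greb1, a direct estrogen receptor target, was at 2.56, 2.49 and 2.69 at 2 h and at −0.71, −0.79 and −1.06 at 24 h, a difference of −3.43 (SE 0.1, adjusted p = 9.12e-17). Its vehicle arrays lay between −1.66 and −1.28, below all 24 h arrays. Gdf15 (−5.38), the matricellular gene Ccn1 (−4.63), Rasd1 (−4.09) and the growth arrest gene Gadd45g (−3.8) fell most within the list. The polyamine synthesis gene Odc1 rose further, by 1.03 (SE 0.1), from 4.47 to 4.69 at 2 h to 5.45 to 5.67 at 24 h, both above vehicle (3.66 to 3.96). Sox4 rose by 0.84 but stayed below vehicle (2.1 to 2.89), at 0.67 to 0.97 against −0.1 to 0.11 at 2 h.

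Secreted signals, their receptors and their targets went both ways. Of 26 vascular growth and permeability genes, 13 were lower (50% against 32.8% of all genes) and 9 higher (34.6% against 35.9%), with a median of −0.34. Vegfa, which raises vascular permeability, was at 4.86, 4.82 and 4.79 at 2 h and at 1.38, 1.31 and 1.53 at 24 h, a difference of −3.42 (SE 0.11, adjusted p = 5.54e-16). The 24 h arrays of Vegfa lay within the range of the vehicle arrays (1.19 to 1.67). Pgf fell by 5.51, the hypoxia factor gene Epas1 by 2.86 and the vasodilator gene Adm by 2.25. The apelin receptor gene Aplnr rose by 2.26 (SE 0.15) and the adrenomedullin co-receptor gene Ramp2 by 1.04. Among 12 EGF family genes 6 were higher and 4 lower (median 0.44). The ligand gene Hbegf fell by 3.49 (SE 0.08) and the receptor gene Egfr by 1.07, whereas the receptor genes Erbb3 (1.74) and Erbb2 (0.81) rose and the ligand gene Btc, well above background on 2 of 3 arrays at 2 h, was at least 4.54-fold higher. Egf rose by 0.46, with a difference of 0.38 within the slide that held both groups (adjusted p = 0.071). That slide held 2 arrays of each time.

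WNT pathway genes were lower in 20 of 32 members and higher in 7, with a median of −0.84. Wnt4, a ligand required for stromal differentiation, was at 3.18, 3.16 and 3.24 at 2 h and at −0.77, −1.04 and −0.64 at 24 h, a difference of −4.01 (SE 0.12, adjusted p = 2.28e-16). Every 24 h array of Wnt4 was below every vehicle array (−0.36 to 0.11). The secreted inhibitor gene Wif1 fell by 3.43 from a 2 h level (0.09 to 0.39) that overlapped vehicle, the ligand gene Wnt9a by 2.87 and the feedback gene Axin2, a common readout of WNT signalling, by 2.47. The ligand gene Wnt10a rose by 2.58 (SE 0.46) and the receptor gene Fzd1 by 2.02 (SE 0.08). Fzd1 was at −0.58 to −0.26 at 2 h and 1.49 to 1.66 at 24 h, against 2.76 in each vehicle array.

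The hedgehog relay joins the epithelial ligand Ihh to its stromal receptor Ptch1, and 6 of its 15 genes were higher and 4 lower (median 0.3). Ihh was at −0.79, −0.55 and −0.67 at 2 h and at −4.19, −4.11 and −4.2 at 24 h, a difference of −3.5 (SE 0.23, adjusted p = 2.61e-11), with vehicle in between (−2.7 to −1.46). Ptch1 was at −3.92, −4.4 and −5.06 at 2 h and −3.9, −4 and −4.55 at 24 h. These arrays overlapped, and the difference of 0.31 (SE 0.23, adjusted p = 0.242) was not called, while vehicle was higher (−2.14 to −1.48). Ptch1 was called higher at 24 h with slide as a fixed term (0.78, adjusted p = 0.00571) and without 2 h replicate 1 (0.58, adjusted p = 0.0283). The stromal transcription factor genes Hoxa11 (1.82), Nr2f2 (1.77) and Hoxa10 (1.45) and the ligand-binding inhibitor gene Hhip (1.79) rose, and the mediator gene Gli2 fell by 0.77.

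Growth factor and IGF genes were split, with 11 of 26 higher and 11 lower (median 0.06, and −0.03 under quantile normalization). Hgf, a stromal growth factor that acts on epithelium, was at −3.43, −3.37 and −3.35 at 2 h and at −0.14, −0.12 and 0.01 at 24 h, a difference of 3.3 (SE 0.17, adjusted p = 5.76e-13). Its vehicle arrays (0.44 to 0.64) lay above both, so the 2 h arrays were the low ones. Fgf7, another stromal ligand, rose by 2.31 from −5.03 to −4.86 at 2 h to −2.75 to −2.58 at 24 h, next to vehicle (−3.07 to −2.61). The binding protein genes Igfbp5 (2.21) and Igfbp2 (2.11) rose, and Igfbp3 (−3.24) and the receptor gene Igf1r (−1.65) fell. Igf1 was at 1.87, 1.8 and 1.65 at 2 h and 3.03, 2.85 and 3.09 at 24 h, a difference of 1.21 (SE 0.1). However, 1 of its 3 probes had the opposite sign, and the mean of its probes differed by 0.05 and was not called. TGF-β superfamily genes were lower in 16 of 32 members and higher in 7 (median −0.37). The activin subunit gene Inhbb was at 6.25 to 6.48 at 2 h and 2.55 to 2.96 at 24 h, a difference of −3.56 (SE 0.12), and stayed above vehicle (1.4 to 1.96). Tgfb2 (−1.9) and the inhibitory Smad gene Smad6 (−1.57) fell, and Bmp5 (1.73) and the decoy receptor gene Bambi (1.32) rose.

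Steroid receptor, cofactor and steroid enzyme genes were lower in 11 of 26 members and higher in 5 (median −0.24). The estrogen receptor gene Esr1 was at 3.2, 3.58 and 3.33 at 2 h and 3.13, 2.76 and 3.41 at 24 h. The arrays overlapped and the difference of −0.27 (SE 0.14, adjusted p = 0.0807) was not called, with 1 of 2 probes of the opposite sign. Esr1 was called lower with slide as a fixed term (−0.51, adjusted p = 0.00535), with quantile normalization (−0.49), with no scaling (−0.29), and without 24 h replicate 3 (−0.43) or 2 h replicate 1 (−0.36). The progesterone receptor gene Pgr, an estrogen target, was at −0.22, −0.21 and −0.35 at 2 h and −0.84, −0.89 and −0.88 at 24 h, a difference of −0.61 (SE 0.08, adjusted p = 1.4e-06). No array overlapped, and both times lay above vehicle (−1.96 to −1.72). The corepressor gene Nrip1 (−2.38), the steroid sulfatase gene Sts (−2.43) and Hsd17b11 (−1.9) fell. Hsd11b2, which inactivates glucocorticoids, rose by 2.27 (SE 0.16), and Hsd17b2, which inactivates estradiol, by 1.3 (SE 0.37).

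Genes of DNA replication were higher at 24 h in 31 of 32 measured members and lower in 0, with a median of 1.91, and 1 member, Rfc3, stood at 0.47 without a call. Mcm10, which helps start replication forks, was at −1.61, −1.9 and −1.95 at 2 h and at 2.34, 1.96 and 2.21 at 24 h, a difference of 3.99 (SE 0.19, adjusted p = 1.01e-13). The vehicle arrays of Mcm10 lay between −2.07 and −1.22, and only the 24 h arrays were high. Uhrf1, which copies DNA methylation (3.86), the thymidine kinase gene Tk1 (3.83) and the licensing gene Cdc6 (3.46, SE 0.21) rose most after it. The helicase subunit gene Mcm2 was at −0.39, −0.09 and −0.06 at 2 h and 1.8, 1.78 and 1.73 at 24 h, a difference of 1.95 (SE 0.09). The smallest called differences were in Pole (0.32) and Orc6 (0.35).

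Mitosis genes were higher in 28 of 30 members, lower in 1 and not called in 1, with a median of 2.73. Cyclin B1, the partner of Cdk1 at mitotic entry (Ccnb1), was at −3.5, −4.29 and −4.05 at 2 h and at −0.06, 0.38 and 0.12 at 24 h, a difference of 4.09 (SE 0.29, adjusted p = 6.71e-11). Its vehicle arrays, −4.6 to −3.34, overlapped the 2 h arrays. The survivin gene Birc5 rose by 3.84, Ccnb2 by 3.66 and the kinesin gene Kif2c by 3.5, and the proliferation marker gene Mki67 by 2.94 (SE 0.18). The spindle checkpoint gene Mad2l1 went the other way: it was at 2.57, 3.1 and 2.92 at 2 h and at 0.84, 0.84 and 0.87 at 24 h, a difference of −2.01 (SE 0.11, adjusted p = 2.14e-12). Both E2 times of Mad2l1 lay above vehicle (−1.92 to −1.37), so it was already high at 2 h, when Ccnb1 was not. The securin gene Pttg1, at −0.18, was not called.

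Of 26 cyclin, E2F and CDK inhibitor genes 19 were higher and 5 lower (median 0.94). Cyclin E1 (Ccne1), which drives entry into S phase, was at −1.16, −1.2 and −1.25 at 2 h and 1.46, 1.26 and 1.48 at 24 h, a difference of 2.6 (SE 0.18). Cyclin A2 (Ccna2, 3.02) and the factor genes E2f8 (2.91), E2f2 (2.86) and E2f1 (2.79) rose. Cyclin D1 (Ccnd1) rose by 0.74 (SE 0.09), from 1.41 to 1.5 at 2 h to 2.09 to 2.25 at 24 h, and its 2 h arrays lay below vehicle (1.64 to 1.65). The inhibitor genes Cdkn1a (p21, −2.56, SE 0.14) and Cdkn1c (p57, −1.66) fell. Cdkn1a was at 2.17, 1.95 and 1.88 at 2 h and at −0.66, −0.13 and −0.88 at 24 h, near vehicle (−1.22 to −0.87).

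Promoter sequences are shown for 4 of these genes because members of both lists moved together and their promoters are known to carry short cell cycle motifs. Promoters were read from RefSeq (GRCm38.p6), and windows of 250 bases before and 50 after the gene start were searched on both strands. The cell cycle homology region (CHR) was searched as TTTGAA and the CCAAT box by its own letters. The site of E2F factors was searched as TTTCCCGC and, as its other form, TTTGGCGC. The cyclic AMP response element (CRE) was searched as TGACGTCA, the estrogen response element (ERE) as its full palindrome, and no motif contains another. A match is a description of letters, not of a bound site. Of 30 mitosis genes 27 had a promoter in the table, and CHR was in 19 (70.4%) and CCAAT in 19 (70.4%), against 18.1% and 37.9% of all 27025 promoters. E2F was in 0 of these 27. Of 32 replication genes 27 had one, with E2F in 10 (37%), CCAAT in 66.7% and CHR in 14.8%, against 1.63% of all promoters for E2F. Of 24 immediate early genes 19 had one, and CRE and ERE were in 0, E2F in 1 (5.26%), CHR in 10.5% and CCAAT in 36.8%. CRE was in 1.88% and ERE in 0.0666% of all promoters. Each sequence printed here is the 250 bases before the gene start, 5′ to 3′ on the strand of the gene, with CHR, CCAAT and E2F matches of either strand in capitals. Cdc20 (2.61, SE 0.16), an activator of the anaphase ubiquitin ligase, and Mcm6 (1.91, SE 0.09), a helicase subunit, were picked after their values were seen. Ccnb2 lies at chr9:70421555-70421804 on the minus strand, Cdc20 at chr4:118437344-118437593 on the minus strand, Cdc6 at chr11:98907901-98908150 on the plus strand and Mcm6 at chr1:128359706-128359955 on the minus strand.
Ccnb2: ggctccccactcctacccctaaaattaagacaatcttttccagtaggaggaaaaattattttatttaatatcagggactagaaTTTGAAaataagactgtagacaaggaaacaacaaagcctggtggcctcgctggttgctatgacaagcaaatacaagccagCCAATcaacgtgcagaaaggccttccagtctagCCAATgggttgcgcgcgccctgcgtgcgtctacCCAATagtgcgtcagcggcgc
Cdc20: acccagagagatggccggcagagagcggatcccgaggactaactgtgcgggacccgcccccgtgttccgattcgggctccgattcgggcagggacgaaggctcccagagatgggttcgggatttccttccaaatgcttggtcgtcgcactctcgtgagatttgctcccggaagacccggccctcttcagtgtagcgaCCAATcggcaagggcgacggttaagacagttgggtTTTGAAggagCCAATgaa
Cdc6: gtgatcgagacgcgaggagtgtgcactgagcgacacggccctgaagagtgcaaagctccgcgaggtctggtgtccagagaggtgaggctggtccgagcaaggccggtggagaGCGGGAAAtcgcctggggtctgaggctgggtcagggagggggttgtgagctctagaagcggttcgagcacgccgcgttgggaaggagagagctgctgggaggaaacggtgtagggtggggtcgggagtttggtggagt
Mcm6: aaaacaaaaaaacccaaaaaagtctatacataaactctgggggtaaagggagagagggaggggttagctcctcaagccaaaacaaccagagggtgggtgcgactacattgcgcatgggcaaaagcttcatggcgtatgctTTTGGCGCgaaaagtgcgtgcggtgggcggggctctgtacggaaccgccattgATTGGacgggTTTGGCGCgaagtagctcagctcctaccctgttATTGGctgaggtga
In the printed stretch Ccnb2 held 1 CHR and 3 CCAAT matches, Cdc20 1 CHR and 2 CCAAT, Cdc6 1 E2F and 0 CCAAT, and Mcm6 2 E2F and 2 CCAAT.

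Genes of protein and energy metabolism were also higher at 24 h, by smaller steps. All 28 proteasome subunit genes were higher (median 0.88) and so were all 30 respiratory chain genes (median 1). Psmb5, a catalytic proteasome subunit gene, was at 2.6, 2.56 and 2.6 at 2 h and 4.1, 4.03 and 4.09 at 24 h, a difference of 1.49 (SE 0.06, adjusted p = 1.09e-14). The ATP synthase gene Atp5g1 was at 2.69, 2.65 and 2.53 at 2 h and 4.72, 4.79 and 4.88 at 24 h, a difference of 2.17 (SE 0.08). For both genes the vehicle arrays (2.38 to 2.6 and 2.33 to 2.68) lay with the 2 h arrays. Psmd14 (1.45), Psmb3 (1.36), Psmc3 (1.2), Ndufa4 (1.73) and Atp5o (1.36) rose too. Cox5a rose by 1.35, with 1 of 2 probes of the opposite sign, and the mean of its probes was −0.5. Of 24 genes of endoplasmic reticulum folding 17 were higher and 3 lower (median 1), led by Sdf2l1 (3.61, SE 0.3), the translocon gene Sec61b (2.19), the chaperone gene Calr (1.79) and Pdia6 (1.75, 1 of 4 probes of the opposite sign). The stress genes Herpud1 (−1.62) and Ddit3 (−0.7) fell. Of 30 genes of amino acid synthesis and tRNA charging, a group under the factor ATF4, 19 were higher and 5 lower (median 0.74). The proline and serine synthesis genes Pycr1 (3.46), Psat1 (2.88), Aldh18a1 (1.97) and Phgdh (2.28, measured on 2 of 3 arrays at 24 h) rose, while the amino acid transporter gene Slc7a5 (−2.63) and Chac1 (−2.61), which splits glutathione, fell.

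Cholesterol synthesis and uptake genes were higher in 25 of 27 members and lower in 1, with a median of 1.7. Fdps, which makes farnesyl diphosphate, was at −0.2, −0.06 and −0.04 at 2 h and at 3.61, 3.53 and 3.9 at 24 h, a difference of 3.78 (SE 0.15, adjusted p = 6.48e-15). Its vehicle arrays (−0.25 to 0.26) overlapped the 2 h arrays. The mevalonate pathway genes Mvd (3.29) and Mvk (3.14) and the sterol demethylase gene Cyp51 (2.56) rose with it. Insig2, which retains the sterol sensor, was called lower by the smallest step (−0.19, adjusted p = 0.0314), with 1 of 3 probes of the opposite sign, and was not called without 24 h replicate 1, 2 or 3 or 2 h replicate 1 or with slide as a fixed term (−0.12, adjusted p = 0.249).

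Ribosome genes split by function. Of 30 ribosome biogenesis genes 12 were higher and 13 lower (median 0), and both times lay above vehicle in the list medians of levels (1.78 at 2 h, 1.41 at 24 h and 0.45 in vehicle). Rrs1 fell from 2.15 to 2.29 at 2 h to 1.13 to 1.36 at 24 h, a difference of −0.95 (SE 0.09), against 0.22 to 0.32 in vehicle. Gnl3 (−0.93), Tsr1 (−0.84) and Utp15 (−0.83) fell as well, and the pseudouridine synthase gene Dkc1 (1.39) and the assembly gene Bop1 (1.14) rose. Of 30 cytosolic ribosomal protein genes 24 were higher and 0 lower (median 0.31). This count depended on the scaling: with quantile normalization 8 were higher and 7 lower with a median of −0.02. Rpl14 (1.31, SE 0.08) rose most in the list.

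**Figure D3:**
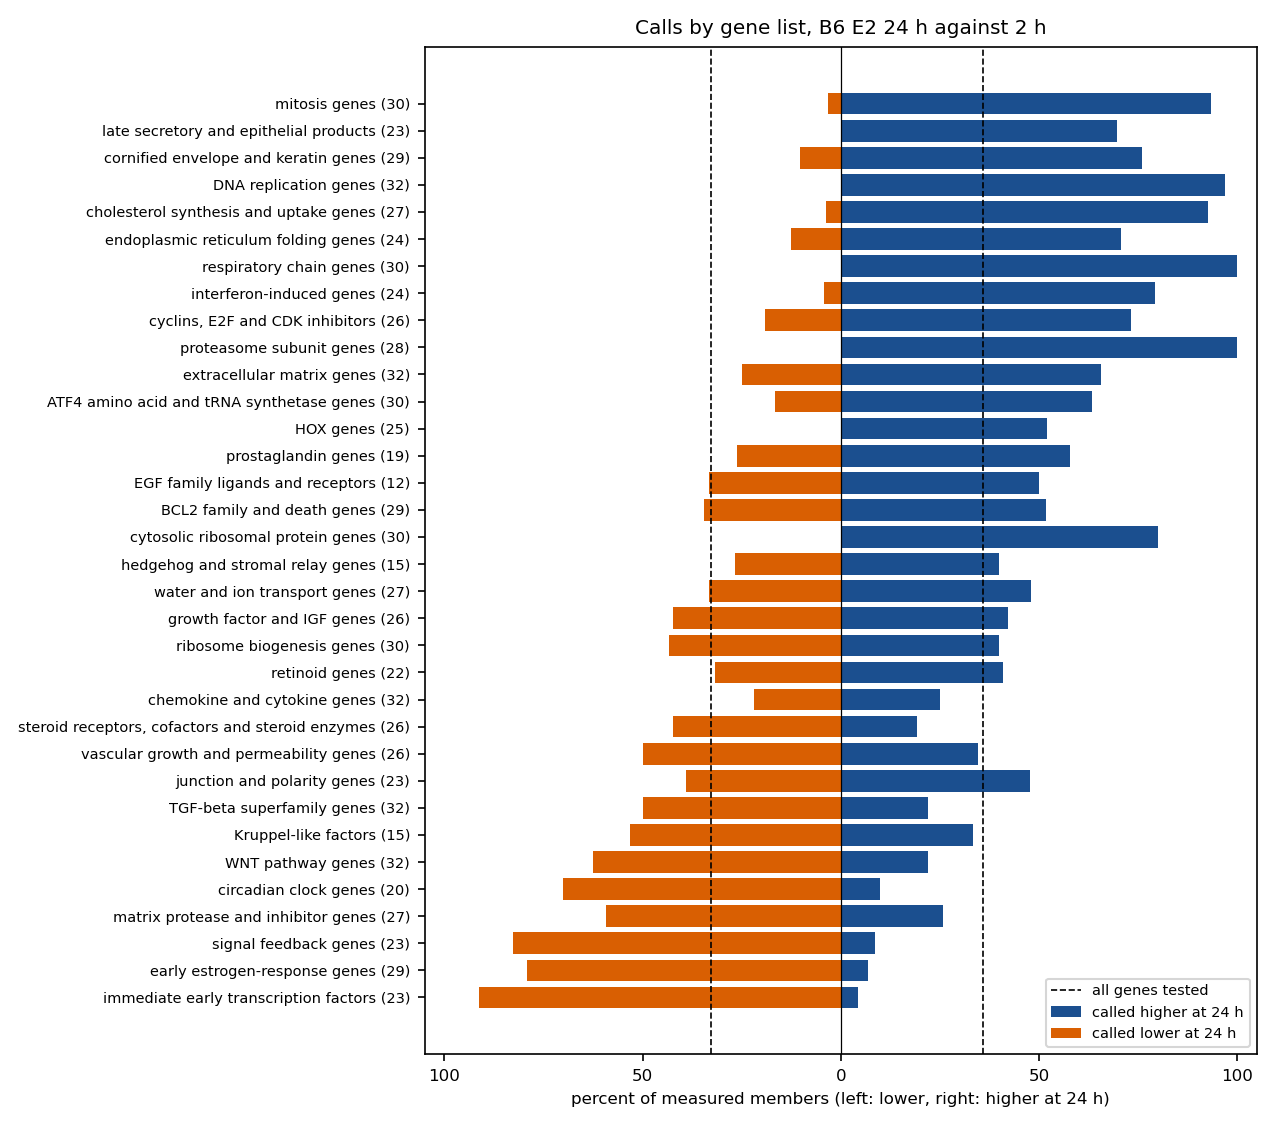
Share of the measured members of each of 34 process lists (number measured in brackets) that was called higher (blue, right) or lower (orange, left) at 24 h than at 2 h in B6 uterus, in percent. Dashed lines mark the shares over all 21866 genes (35.9% higher, 32.8% lower). Respiratory chain and proteasome genes reach 100% higher and immediate early genes 91.3% lower.

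Late secretory and epithelial products were higher in 16 of 23 members and lower in 0, with a median of 2.26. Muc1, a surface mucin gene, was at −3.66, −3.76 and −3.21 at 2 h and at 0.06, 0.04 and −0.19 at 24 h, a difference of 3.51 (SE 0.17, adjusted p = 2.25e-13). Lactoferrin (Ltf), a classic estrogen-regulated secretory protein, was at 0.39, 0.58 and 1.28 at 2 h and at 4.79, 4.48 and 4.29 at 24 h, a difference of 3.77 (SE 0.26). The vehicle arrays of Ltf lay between 1.52 and 1.92, above every 2 h array and below every 24 h array. Complement C3 was at 4.94, 5.38 and 5.51 at 2 h and 6.31, 6.18 and 6.17 at 24 h, a difference of 0.94 (SE 0.37, adjusted p = 0.029). The call on C3 was lost without 24 h replicate 1, 2 or 3 or 2 h replicate 1 (0.78 to 0.97), and with slide as a fixed term (0.8, adjusted p = 0.165), but held within the slide that held both groups (0.8, adjusted p = 0.00421). The chitinase-like gene Chil1 was at least 43.8-fold higher. The 7 members not called, among them Prss28 (−0.14), Olfm1 (0.03) and Slpi (0.07), stood between −0.14 and 0.5.

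Cornified envelope and keratin genes were higher in 22 of 29 members and lower in 3, with a median of 2.05. The simple epithelial keratin gene Krt8 was at 4.31, 4.34 and 4.47 at 2 h and 6.43, 6.42 and 6.42 at 24 h, a difference of 2.05 (SE 0.11, adjusted p = 7.46e-13), with vehicle (4.48 to 4.65) near the 2 h arrays. Keratins of basal squamous epithelium varied far more. Krt14 was at −2.9, −2.96 and −2.49 at 2 h and at 4.1, 3.42 and 1.59 at 24 h, a difference of 5.82 (SE 1.16, adjusted p = 0.000152), and Krt5 at −0.69, −1.05 and 0.15 and at 5.3, 5.1 and 3.21, a difference of 5.07 (SE 1.36, adjusted p = 0.00238). In both genes 24 h replicate 3 was the lowest of its group, and no array overlapped. Of 10 squamous epithelium markers 7 were higher and 1 lower. Their mean level was 0.07 and −0.12 in 24 h replicates 1 and 2 and −0.96 in replicate 3, against −1.85 to −1.64 at 2 h and −2.38 to −1.91 in vehicle. The part of vaginal or cervical tissue in these values was not tested. The hair keratin gene Krt86 fell from 1.82 to 2.07 at 2 h to −0.59 to −0.17 at 24 h (SE of the difference 0.18) and stayed above vehicle (−5.87 to −5.57), and Krt4, well above background on 2 of 3 arrays at 24 h, was at least 9.99-fold lower.

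Water and ion transport genes went both ways, with 13 of 27 higher and 9 lower (median 0.19). The water channel gene Aqp5 was at 4.59, 4.74 and 4.67 at 2 h and at 2.45, 2.05 and 1.98 at 24 h, a difference of −2.51 (SE 0.15, adjusted p = 7.03e-12), and stayed above vehicle (−0.68 to −0.28). The sodium channel gene Scnn1g was at least 10.2-fold lower and the carbonic anhydrase gene Car4, well above background on 1 of 3 arrays at 24 h, at least 9.9-fold lower. Carbonic anhydrase 2 (Car2) was at 1.66, 1.44 and 1.75 at 2 h and at 5.61, 5.54 and 5.47 at 24 h, a difference of 3.92 (SE 0.15). The chloride channel gene Cftr (2.76) and Car12 (2.67) rose, and Aqp4, well above background on 2 of 3 arrays at 2 h, was at least 3.52-fold higher. Junction and polarity genes were higher in 11 of 23 members and lower in 9 (median −0.34, and 0.01 within the slide that held both groups). The claudin genes Cldn2 (2.91), Cldn7 (1.7) and Cldn23 (1.49) and Ocln (1.18) rose, and Cldn11 (−1.4) and the cadherin gene Cdh3 (−1.23) fell.

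Extracellular matrix genes were higher in 21 of 32 members and lower in 8 (median 0.77), while matrix protease and inhibitor genes were lower in 16 of 27 and higher in 7 (median −0.9). Col1a1, a fibrillar collagen gene, was at 4.13, 2.81 and 3 at 2 h and at 6.67, 6.7 and 6.93 at 24 h, a difference of 3.46 (SE 0.28, adjusted p = 4.49e-10). Among the 2 h arrays replicate 1 was the highest, above vehicle (3.6 to 3.99), and no 2 h array reached a 24 h array. Col3a1 (2.82) and Col1a2 (2.49) rose with it. The hyaluronan synthase genes moved apart, Has2 upward by 2.7 (SE 0.18) and Has1 downward by 4.37 (SE 0.39), and the laminin gene Lamb1 fell by 2.05. Among proteases and inhibitors Adamts4, which cuts aggrecan, was at 1.89, 2.22 and 2.45 at 2 h and −2.66, −2.64 and −2.39 at 24 h, a difference of −4.75 (SE 0.19). The kallikrein gene Klk1b5 (−2.33), a member of a family of near-identical genes that probes may not separate, and Mmp10 (−2.28) fell, and Mmp7 (2.01) and Timp1 (1.67) rose.

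Interferon-induced genes were higher in 19 of 24 members and lower in 1 (median 0.96). Oasl1 was at −2.67, −3.05 and −2.72 at 2 h and at 0.2, −0.2 and 0.15 at 24 h, a difference of 2.87 (SE 0.25, adjusted p = 1.8e-09). Ifit3 rose by 2.01, Oas1a by 1.92 and Oas2 by 1.84. In Ifit3 vehicle replicate 1 stood at 3.5, above all arrays of both E2 times, and the other vehicle arrays at 1.44 and 1.56. Irf1 was the member called lower (−0.6, adjusted p = 0.0405) and was not called without any 1 of 24 h replicates 1 and 2 or of the 2 h replicates, or with slide as a fixed term (−0.65, adjusted p = 0.105). Chemokine and cytokine genes were higher in 8 of 32 members and lower in 7, below both shares over all genes, with a median of −0.13 (0.02 with median centring). The neutrophil chemokine gene Cxcl5 was at least 18.2-fold higher and Ccl20 (2.94), Cxcl10 (2.87, SE 0.84) and Ccl28 (2.26) rose. With slide as a fixed term Cxcl10 was not called (2.65, adjusted p = 0.0518). Il11, a cytokine of stromal differentiation, fell by 2.8, and Il6 was at least 2.23-fold lower (fitted difference −1.52, adjusted p = 0.0176). Il6 lost its call with slide as a fixed term (−1.19, adjusted p = 0.156), without 24 h replicate 3 (−1.34, adjusted p = 0.0628) or 2 h replicate 1 (−1.36, adjusted p = 0.0603), and with normexp fitted without spots far below background (−0.27, adjusted p = 0.227).

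Several regulator families changed between both times. Of 20 circadian clock genes 14 were lower and 2 higher (median −0.86), led by Cry2 (−3.37, SE 0.09), Nfil3 (−3.06), Per2 (−2.62) and Rora (−2.37), while Dbp rose by 1.38 and stayed below vehicle. Cry2 was at 2.98, 2.83 and 2.8 at 2 h and at −0.55, −0.41 and −0.53 at 24 h, with vehicle at 0.96 to 0.98. The hour of the day at collection is not in the labels, so its part in these values was not tested. HOX genes, which pattern the reproductive tract, were higher in 13 of 25 members and lower in 0 (median 0.69), with Hoxb6 (2.15), Hoxa9 (1.86) and Hoxb7 (1.62) beside Hoxa11. Of 15 Krüppel-like factor genes 8 were lower and 5 higher (median −0.44), Klf10 (−1.56), Klf9 (−1.09), Klf6 (−0.95) and Klf16 (−0.82) downward and Klf15 (0.92) upward. Klf5 was called higher (1.01), but 1 of its 2 probes had the opposite sign and the mean of both was 0.18 and not called.

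Prostaglandin genes were higher in 11 of 19 members and lower in 5 (median 0.52). Receptor genes rose, Ptgfr, the receptor for prostaglandin F, by 3.2 (SE 0.17), Ptger3 by 2.11, Ptger2 by 1.88 and Ptgir by 1.26, while the synthase genes Ptges (−3.94, SE 0.1) and Hpgds (−2.19) fell. Ptgfr was at −3.73, −4.41 and −4.56 at 2 h and at −1.12, −0.92 and −1.06 at 24 h, below vehicle (−0.23 to 0.05) at both times. Retinoid genes were split, 9 of 22 higher and 7 lower (median −0.01, and 0.13 with median centring). The oxidoreductase gene Dhrs9 (3.55) and the binding protein genes Crabp1 (3.03) and Crabp2 (2.31) and Rdh10 (1.44) rose, and Aldh1a3, which makes retinoic acid, fell by 4.04 (SE 0.17) and Lrat, which stores retinol, by 2.86. Of 29 BCL2 family and death genes 15 were higher and 10 lower (median 0.34). Naip1, well above background on 1 of 3 arrays at 2 h, was at least 16.2-fold higher, Bmf (2.59), Bad (1.74) and Bak1 (1.47) rose, and Bcl2l11 (−2.28) and Bcl2 (−1.79) fell.

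Markers of cell types other than the main uterine layers were followed because they bear on bulk values. Of 17 epithelium markers 13 were higher and 1 lower (median 1.06), among them Krt7 (2.15) and Krt19 (2.09). Of 12 stroma markers 8 were higher and 2 lower (median 1.39), and Twist2 fell by 3.12. Of 14 smooth muscle markers 7 were higher and 4 lower (median 0.21), and with quantile normalization 3 were higher and the median was −0.03. The oxytocin receptor gene Oxtr fell by 3.93 (SE 0.16), from −0.65 to −0.19 at 2 h to −4.53 to −4.24 at 24 h, while the contractile actin gene Actg2 rose by 1.01. Of 13 endothelium markers 2 were higher and 5 lower (median −0.07, and 0.07 with median centring), Plvap upward by 2.11 and Cdh5 and Esam each downward by 0.73.

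The share of blood cell markers called higher was 0% to 20% by list, against 35.9% of all genes. The share called lower was 80% for eosinophil and mast cell and 40% for T, B and NK cell markers, against 32.8% of all genes. It was 25% for neutrophil, 8.33% for macrophage and 0% for red blood cell markers. Of 10 eosinophil and mast cell markers 8 were lower and 0 higher, led by Kit (−2.13) and Prg2 (−1.54), and their mean level was −3.25 to −3.09 at 24 h and −2.3 to −2.06 at 2 h. Of 15 T, B and NK cell markers 6 were lower and 0 higher, such as Klrb1c (−1.29) and Nkg7 (−1.22). Of 12 macrophage markers 1 was higher, Fcgr1 (1.22), and 1 lower, Csf1r (−0.61), and Csf1r lost its call within the slide that held both groups (−0.47, adjusted p = 0.0745) and without 24 h replicate 2 or 3 or 2 h replicate 1 or 2. Of 8 neutrophil markers 1 was higher, Mpo (2.29), and 2 lower, Mmp9 (−1.59) and Retnlg (−1.11). Retnlg lost its call with slide as a fixed term (−1.11, adjusted p = 0.0702), with median centring or quantile normalization, and without 24 h replicate 1 (−0.99, adjusted p = 0.112), 24 h replicate 2 (−0.89, adjusted p = 0.145) or 2 h replicate 1 (−0.77, adjusted p = 0.194). Of 5 red blood cell markers 1 was higher and 0 lower. Of 11 adipocyte markers 0 were higher and 3 lower (27.3% against 32.8% of all genes). The other 8 were not called, among them Adipoq (−0.53), Fabp4 (−0.25) and Plin1 (−0.18). Pparg (−4.38, SE 0.21) was at 2.71, 3.22 and 3.31 at 2 h and −1.35 to −1.25 at 24 h, with vehicle at −1.18 to −0.66, far below the 2 h arrays. Another of the 3 lower markers, Ucp1 (−1.15), was well above background on none of the 9 B6 arrays. The Ucp1 difference became −0.01 (adjusted p = 0.95) with normexp fitted without spots far below background. Liver transcripts were lower in 6 of 9 members. Alb was at 1.95, 1.62 and 0.34 at 2 h, −1.22, −0.04 and −0.7 at 24 h and 3.88, 1.96 and 2.44 in vehicle. Its difference of −1.96 (SE 0.48) became −1.61 within the slide that held both groups (adjusted p = 0.0841), and Fgb (−1.75) and Apoa1 (−1.62) lost their calls there too. That slide held only 2 arrays of each time, and the part of the smaller number of arrays in these lost calls was not tested. Of 11 oviduct and ovary markers 2 were higher and 2 lower, and of 10 mesothelium and nerve markers 1 was higher and 2 lower, with Wt1 at −1.87. The part of any of these cells in the other gene lists was not tested.

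The vehicle level orients which time had departed from the untreated state. For each gene called with at least a 2-fold difference, its position was the vehicle mean on a scale with the 2 h mean at 0 and the 24 h mean at 1. A gene within 0.25 of either end counted as at that level. Of 2753 genes higher at 24 h, 1168 (42.4%) had vehicle at the 2 h level, 795 (28.9%) between, 360 (13.1%) at the 24 h level, 256 (9.3%) beyond the 24 h level and 174 (6.32%) beyond the 2 h level. Of 3014 genes lower at 24 h, 968 (32.1%) had vehicle between, 801 (26.6%) at the 2 h level, 602 (20%) at the 24 h level, 468 (15.5%) beyond the 2 h level and 175 (5.81%) beyond the 24 h level. These counts use the same 6 arrays as the difference itself and carry no test.

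Each class is shown by its leading genes. By class, Sprr2f, Serpinb5 and Krt14 rose with vehicle at the 2 h level. Hgf, Lratd1 and Pabpc4l had been low at 2 h and had vehicle at the 24 h level. A class is relative to the gap between both times and does not mean equal levels. Every 2 h array of Sprr2f was above vehicle, and every 24 h array of Hgf was below it. Lratd1 was at 0.57 to 1.23 in vehicle, −2.63 to −2.04 at 2 h and 0.62 to 0.89 at 24 h. Ptgfr, the transcription factor gene Msc (3.01) and Dnm3os (2.76) rose only part of the way back to vehicle, and Dhrs9, Fer1l4 (3.42) and the calcium pump gene Atp2c2 (3.06) had a 2 h level already above vehicle. Among falls Arc, Myh7 and Nkpd1 had vehicle at the 24 h level. The methyltransferase gene Inmt (−4.39), Coch and Aldh1a3 fell with vehicle at the 2 h level: Inmt was at 4.94 to 5.3 in vehicle, 4.9 to 5.02 at 2 h and 0.37 to 0.72 at 24 h. Trim15 (−4.35), the kallikrein gene Klk1b27 (−3.77) and Inhbb were still above vehicle at 24 h, with Trim15 not well above background on any vehicle array. Mlana (−3.2), Speer4d (−2.82) and Snhg11 (−2.81) were below vehicle at 2 h and lower again at 24 h. Slc9a2, Kcne2 and Pitpnm3 were above vehicle at 2 h and below it at 24 h.

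**Figure D4:**
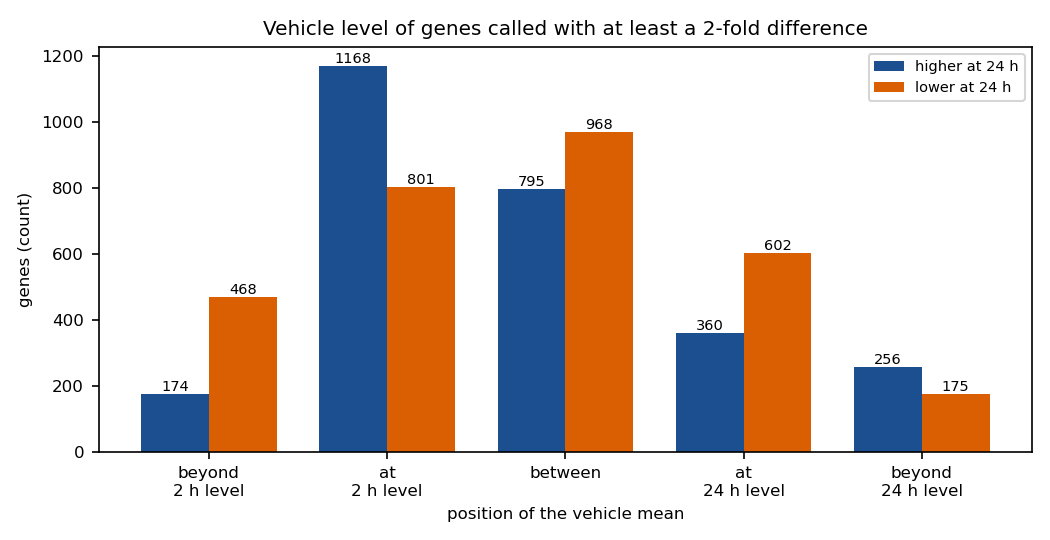
Number of genes (vertical axis) called with at least a 2-fold difference between 24 h and 2 h in B6 uterus, by where the mean of the 3 vehicle arrays lies on the scale from the 2 h to the 24 h mean, for genes higher (blue) and lower (orange) at 24 h. Vehicle at the 2 h level is the largest class of the rises (1168) and between both times that of the falls (968).

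The same 24 h minus 2 h difference was set against that of C3H and F1 uterus, tested as a difference of differences in the same limma fit. It departed from B6 in C3H for 5021 genes (23%), 2127 above (9.73%) and 2894 below (13.2%) the B6 value, and in F1 for 1928 genes (8.82%), 1006 above (4.6%) and 922 below (4.22%). The split depended on the scaling: with median centring C3H had 1361 above and 4642 below and F1 568 and 1658, and with no scaling C3H had 1107 and 2474 and F1 299 and 646. The C3H count was 1419 with slide as a fixed term. Of the C3H 24 h arrays only replicate 1 shared a slide with C3H 2 h arrays, so no count within slides is given. The F1 arrays of 24 h lie alone on their slide, so for F1 slide and group cannot be told apart. Without C3H 24 h replicate 1 the C3H count was 6165, 2088 above and 4077 below. Without F1 24 h replicate 3 or F1 2 h replicate 2 or 3 the F1 count was 1250, 1132 and 1165.

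Members of several growth lists had a 24 h minus 2 h difference called below that of B6 in C3H. Mitosis genes had few such calls, though their median lay below B6 as well. Over all 21866 genes 2894 (13.2%) were below the B6 difference in C3H, and 699 with slide as a fixed term. DNA replication genes were below it in 26 of 32 members (13 with slide as a fixed term) and above it in 0, with a median of −0.59 against −0.05 over all genes. Proteasome genes were below in 24 of 28 (8 with slide fixed; median −0.38), ribosome biogenesis genes, which had a median of 0 in B6 (12 higher, 13 lower), in 20 of 30 (8; −0.49), endoplasmic reticulum folding genes in 17 of 24 (7; −0.62), and respiratory chain genes in 15 of 30 (2; −0.28). Mitosis genes were below in 6 of 30 and above in 2, but their median of −0.47 was close to that of ribosome biogenesis genes. Cytosolic ribosomal protein genes were below in 2 of 30 (median −0.09). Cholesterol genes were below in 13 of 27 and above in 2, with 1 below and 1 above with slide fixed. WNT pathway genes were above the B6 difference in 16 of 32 and below in 1 (median 0.54), against 9.73% of all genes above. In F1 the counts below B6 were 5 of 32 for replication and 8 of 28 for proteasome genes. They were 15 of 30 for ribosome biogenesis and 11 of 24 for folding genes, against 922 (4.22%) of all genes. These 4 list counts fell by more than 1.5 times to 0, 4, 6 and 6 without F1 2 h replicate 2, where 487 of all genes were below. Mitosis genes were below B6 in 0 and above in 2 in F1.

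Single genes differed more. Wnt9a fell by 2.87 in B6 and stood at −2.11 in F1 and 1.22 in C3H, a C3H minus B6 difference of 4.09 (SE 0.12, adjusted p = 1.42e-14). Cxcl1, at −0.69 in B6 (SE 0.61, adjusted p = 0.33), had −4.84 in C3H, a difference of −4.15 (SE 0.87, adjusted p = 0.002). Crtac1, a matrix protein gene, rose by 4.85 in B6 and stood at 1.81 in C3H, a difference of −3.04, and F1 equalled B6 at 4.85. Bpifb5 rose by 2.11 in B6 and stood at −1.33 in C3H and 0.18 in F1. Krt20 fell by 1.55 in B6 and stood at 0.96 in C3H and 0.58 in F1. Of the genes followed throughout, Sprr2f had a smaller rise in C3H (5.75, difference −1.92, adjusted p = 0.00604), Mcm10 as well (2.94, difference −1.05), and Ltf a larger one (5.09, difference 1.32), whereas the differences of these 3 genes in F1 were not called. The mean of Sprr2f in C3H was 0.11 at 2 h and 5.86 at 24 h, against −2.4 and 5.27 in B6. Its smaller rise thus went with a higher 2 h level and not with a lower 24 h level. Cdkn1a fell further in both C3H (difference −0.99) and F1 (−0.8), and Igf1 had a smaller difference in both (−0.75 and −0.67).

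**Figure D5:**
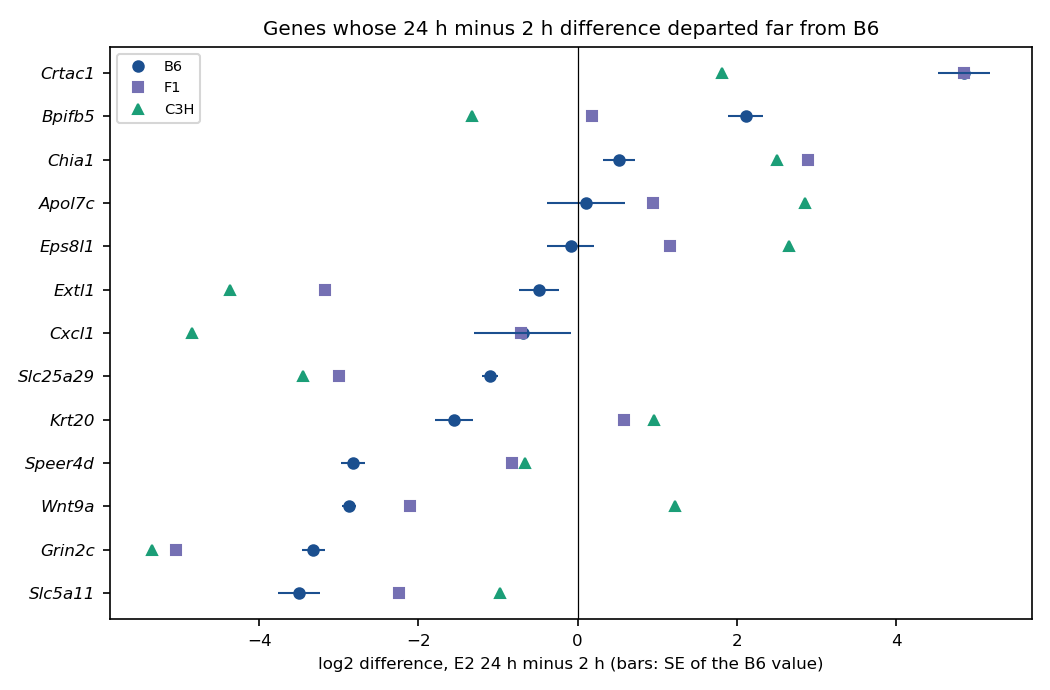
Log2 difference of 24 h minus 2 h (horizontal axis) in B6 (circles, bars show the SE), F1 (squares) and C3H (triangles) for 13 genes whose value departed far from B6 in C3H or F1. Wnt9a lies at −2.87 in B6 and 1.22 in C3H, and Crtac1 at 4.85 in both B6 and F1.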

How the data were processed

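Per the file headers, the authors' Agilent Feature Extraction (version 9.5.3.1; the submitters' processing notes name 9.5) made the deposited processed signal, an intensity per spot after background subtraction and spatial detrending, with low values replaced by surrogates and no scaling between arrays. Each array held 45018 spots, of which 1639 were controls, and labelling started from 500 ng RNA with 17 h of hybridisation, per the labels. Here, control and outlier spots were left out, log2 of the processed signal minus the 75th percentile of non-control spots of each array was taken, repeated spots were averaged, and 32901 of 41174 probes were kept as detected. A gene took the value of its brightest detected probe, and 1236 of 5631 called genes with several probes had a probe of the opposite sign. Names came from a RefSeq table by accession (22944 probes), symbol (6664) or synonym (3108), or stayed as in the files (8458).

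limma 3.58.1 (R 4.3.3) was fitted with 9 group means over 27 arrays, which share one estimate of the spread (18 residual and 1.95 prior degrees of freedom), with Benjamini-Hochberg adjustment over 21866 genes. Python 3.11.15 with numpy 2.4.6, pandas 2.3.3 and matplotlib 3.10.9 did the rest. The script was tested on simulated data for 24 h against 2 h (21820 genes), with 67, 67 and 66 genes changed by 0.5, 1 and 2 log2 units. It recovered 44.8%, 71.6% and 95.5% of them, with 4 false among 145 calls. Far fewer genes changed there than the 68.7% called in the data, so these rates do not carry over to the real comparison. The number of arrays limits the precision.

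The 48 gene lists (34 of processes, 14 of cell types; 1035 of 1080 entries measured) and the samples compared were chosen with earlier results of these data known. Genes were named by rule: the 12 largest rises and falls detected on every array, the 4 largest bounds each way, up to 4 and 2 called members per process list (main and other direction), 3 per cell type list, 4 per strain difference and direction, 3 per vehicle class, and a set named whether called or not, such as Fos, Myc and Esr1. A few genes that the rule names are not reported here. Alternatives covered background correction, scaling, probe filters and summaries, samples in the fit, slide, replicate number and single arrays left out.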

Additional observations from a re-analysis of the deposited data

Results flagged for a closer look

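The 24 h minus 2 h difference departed from that of B6 uterus in 5021 genes in C3H and 1928 in F1 by the limma test of the difference of differences at a Benjamini-Hochberg adjusted p under 0.05. Among genes named for this, Wnt9a (4.09), Apol7c (2.75), Eps8l1 (2.74) and Slc5a11 (2.52) lay furthest above the B6 value in C3H. Cxcl1 (−4.15), Extl1 (−3.88), Bpifb5 (−3.43) and Crtac1 (−3.04) lay furthest below it. In F1, Chia1 (2.37), Krt20 (2.13) and Speer4d (1.99) lay far above B6, and Extl1 (−2.68), Bpifb5 (−1.93), Slc25a29 (−1.9) and Grin2c (−1.72) furthest below.

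Of the genes named whether called or not, 12 differed in C3H. Jun (0.61), Wnt4 (0.52), Greb1 (0.56) and Ihh (1.18), which fell in B6, and Ltf (1.32), which rose, lay above the B6 value. Cdkn1a (−0.99), Ccnd1 (−0.68), Ccne1 (−0.8), Mcm2 (−0.62), Mcm10 (−1.05), Sprr2f (−1.92) and Igf1 (−0.75) lay below it. In F1, Pgr (−0.44), Cdkn1a (−0.8) and Igf1 (−0.67) lay below it. The part of slide in the F1 values cannot be told apart from the group.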

How the results depend on the processing

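The main count of 15019 genes was within 1.5 times under every alternative but normexp background correction, from 13405 within the slide that held both groups to 15145 with quantile normalization. Normexp gave 7782 genes (3145 with at least 2-fold), 1092 for C3H minus B6 and 25 for F1 minus B6. A few spots lay far below their local background on some arrays (7 spots in B6 2 h replicate 2), where the 1st percentile of corrected signal was up to 1125 against 55 to 60 without such spots. Normexp fitted without them, added after seeing the data, gave 14262 genes, and 3697 with at least 2-fold. Leaving out single arrays gave 14348 to 14437 genes, 5704 to 5828 with at least 2-fold, 3693 to 6165 for C3H minus B6 and 1132 to 2571 for F1 minus B6, among them 1250 without F1 24 h replicate 3, 1132 without F1 2 h replicate 2 and 1165 without F1 2 h replicate 3. C3H minus B6 gave 1419 genes with slide as a fixed term and 237 within slides, and F1 minus B6 gave 945 without scaling. F1 minus B6 could not be fitted with slide as a fixed term. With the 9 B6 arrays alone 14306 genes were called, and C3, Cxcl10 and Fcgr1 were among the named genes that lost their call. The cause of these moves was not tested.

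Replicate numbers did not pair the arrays (correlations 0.077, −0.074 and −0.049 in B6), and the replicate block gave 14914, 5756 with at least 2-fold, 4542 for C3H minus B6 and 1462 for F1 minus B6. With vehicle limits of 0.1 and 0.9, rises had vehicle at the 24 h level in 141 genes, at the 2 h level in 545, between in 1394 and beyond the 2 h level in 332, and falls at the 24 h level in 255, at the 2 h level in 352 and beyond the 24 h level in 292. Without vehicle replicate 1, rises gave 345, 1240, 702, 267 and 199 genes (24 h level, 2 h level, between, beyond 24 h, beyond 2 h) and falls 566, 934, 859, 180 and 475.

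Signs turned for Aqp4 (−0.12), Bmp5 (−0.24), Chia1 (−0.27), Egf (−0.5), Hhip (−0.08), Hsd17b2 (−0.37), Klf1 (−0.64), Ptch1 (−0.41) and Apol7c (−0.35) with normexp. They turned for Cox5a (−0.5), Insig2 (0.4), Klf2 (−1.1), Mbp (−0.34) and Apol7c (−0.5) with the mean of all probes, and for Klf2 (−0.04) and Myc (−0.07) with quantile normalization. Eps8l1 was 0.06 with median centring and −0.23 to 0.02 on leaving out single arrays. Slide as a fixed term or within slide gave Myc −0.16 and Apol7c −0.03. On leaving out single arrays Myc ranged from −0.09 to 0.18 and Apol7c from −0.07 to 0.19, with Apol7c at −0.01 without 24 h replicate 1 and Myc at −0.02 without 2 h replicate 1. Scaling moved some list counts: with quantile normalization 5 vascular genes were higher (9 as reported), and with median centring 9 steroid genes (5), 4 clock genes (2) and 5 endothelium markers (2) were higher. Other named gene values kept direction and call in 6018 cases, lost the call in 129 and gained it in 10.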
